A study of Mus musculus with 6 samples.

Results

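The calponins, transgelins, caldesmon, smooth muscle myosin, myosin light chain kinase and the coactivators of serum response factor (SRF) were followed as a group of 10 genes, set by name: Cnn1, Cnn2, Cnn3, Tagln, Tagln2, Cald1, Myh11, Mylk, Myocd and Mrtfa. All 10 symbols were found among the 55471 genes of the count table, and 8 of them had enough counts to be tested. The polyA RNA came from 10T1/2 cells, a mouse embryonic fibroblast line kept without treatment, as 3 libraries of wild-type (WT) genotype and 3 labelled Ranbp2 KO, in which Ranbp2, the gene of a nuclear pore protein, had been targeted with CRISPR/Cas9. Whether the KO cells were 1 clone or several is not stated. The design text calls the libraries biological replicates but does not describe how the cultures were kept apart, and the p-values therefore reflect only how much these libraries vary.

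Calponins and transgelins share a calponin homology domain and sit on actin filaments, where calponin and caldesmon restrain the actin-activated ATPase of myosin. In smooth muscle, contraction starts when calcium-calmodulin turns on myosin light chain kinase, and the smooth muscle myosin heavy chain then pulls on actin. Many of these genes are classic targets of SRF, which binds a DNA element called the CArG box and relies on coactivators: myocardin in smooth and cardiac muscle, and the more widely made myocardin-related factors, which are held in the cytoplasm by monomeric actin and enter the nucleus when actin polymerises.

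Ranbp2 itself (chromosome 10, 58446920 to 58494356) was called higher, not lower, in the libraries labelled KO (log2 difference 0.28, SE 0.07, edgeR adjusted p 0.012). Its level, in CPM (counts scaled to library size by the trimmed mean of M-values, TMM), was 294, 289 and 293 in those libraries against 219.6, 249.96 and 249 in WT. Counts summed over a gene cannot reveal an edited exon. The libraries are therefore called KO-labelled, and each difference is KO-labelled minus WT. Library totals ran from 32072817 to 46321967 expected counts. Fibroblast markers were abundant: their summed level was 14620 to 16290 CPM in KO-labelled and 14460 to 17450 CPM in WT libraries, most of it from Col1a1, Col1a2 and Vim. Of the 7 markers, 4 rose (Dcn and Lum, both low, Col3a1 and Pdgfra), 1 fell (Col1a1) and 2 did not pass. These and the marker calls below stand beside 17.6% higher and 21.3% lower among all genes tested. Smooth muscle markers summed to 2189 to 2440 CPM in KO-labelled and 3122 to 3482 CPM in WT libraries. Most of this was Acta2, which fell from 3030 to 2081 CPM (edgeR adjusted p 0.00147). Of the 6 tested, Acta2, Cnn1 and Lmod1 fell, Des rose, and Tagln and Smtn did not pass. Myh11 and Myocd were not tested. These markers are not separate from the results below. Tagln, Cnn1, Myh11 and Myocd are members, and Acta2, Smtn, Lmod1 and Des recur in the contractile list. Pericyte markers, of a cell type close to smooth muscle, summed to 436 to 535 CPM in KO-labelled and 599.5 to 727 CPM in WT libraries. All 5 that were tested were called: Notch3 fell from 12.1 to 1.38 CPM, Cspg4 and Pdgfrb fell by 0.56 and fell by 0.37 on the log2 scale, Mcam rose from 8.64 to 25.2 CPM and Rgs5 from 0.204 to 0.750 CPM, while Kcnj8 had 0 counts. The defining skeletal muscle genes Myod1 and Myog had 0 counts in every library, although the skeletal list summed to as much as 9.44 CPM, mostly from Acta1. The leukocyte gene Adgre1 had 0 counts and that list summed to at most 2.19 CPM, mostly from Cd68. The 5 cardiac genes summed to at most 0.570 CPM. Tnni3, the only 1 of them tested, fell, at 14 against 61 summed counts (edgeR adjusted p 0.013). Among epithelial markers Cdh1 rose from 2.22 to 7.46 CPM, while Epcam, Krt5, Krt8 and Krt18 stood at or below 0.165 CPM in mean. The endothelial list summed to 20.9 to 24.7 CPM in KO-labelled and 35.3 to 39.4 CPM in WT libraries, nearly all of it Tek. Tek fell from 37.0 to 21.9 CPM (edgeR adjusted p 0.000112), and Pecam1, the other gene tested, did not pass. The part of these marker levels in the results below was not tested. Lower mRNA in bulk samples cannot be told apart from fewer cells that make it.

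Promoter sequences, from RefSeq on GRCm38.p6, were held for 7 of the 10 members, as 9 windows of 250 bases before to 50 bases after a start. They were searched for the CArG box, which reads the same on both strands, and for GGAATG, the core of the TEAD element, on either strand. Tagln, Myh11 and Myocd had no window and were not searched. Among the windows held, the only CArG box was in Cnn2, 56 to 47 bases before the RefSeq start (chr10:79988544-79988553), and 1.63% of all 32851 promoter windows hold one. A CArG box or a sequence 1 letter away stood in 3 of the 9 windows, against 21.1% of all windows. These were the windows of Cnn2 and of the upstream starts of Cald1 and Mrtfa. GGAATG stood in 3 of the 9 windows, those of Tagln2, Mylk and the upstream start of Cald1, against 14.7% of all windows. The sequences of Cnn2, of its paralog Cnn1 and of Mylk are shown because these are the most abundant calponin, the calponin with the largest fold difference and the member that rose. Each runs 5′ to 3′ on the plus strand and holds no annotated exon, and the capitals mark the CArG box. The runs of Cnn2 and Cnn1 end where the annotated gene begins, whereas that of Mylk lies before an internal start, in an intron of a transcript that starts further upstream.
Cnn2, chr10:79988350-79988583: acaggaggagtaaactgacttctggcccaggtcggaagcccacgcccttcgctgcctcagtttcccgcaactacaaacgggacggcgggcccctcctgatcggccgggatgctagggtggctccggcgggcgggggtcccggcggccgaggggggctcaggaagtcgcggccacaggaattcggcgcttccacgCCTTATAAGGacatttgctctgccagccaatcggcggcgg
Cnn1, chr9:22099003-22099215: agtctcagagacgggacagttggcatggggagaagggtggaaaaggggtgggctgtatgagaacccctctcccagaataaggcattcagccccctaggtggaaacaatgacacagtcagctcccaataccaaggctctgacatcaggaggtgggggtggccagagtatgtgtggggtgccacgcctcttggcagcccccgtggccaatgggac
Mylk, chr16:34784700-34784920: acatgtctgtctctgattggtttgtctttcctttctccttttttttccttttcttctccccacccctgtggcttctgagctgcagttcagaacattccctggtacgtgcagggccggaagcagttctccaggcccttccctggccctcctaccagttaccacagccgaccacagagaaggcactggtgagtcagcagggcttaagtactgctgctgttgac
A match is a description of these letters and not a bound site, and the windows do not reach elements further away. In all, 3 of the 9 windows belong to starts far inside the annotated gene, those of Mylk, of the downstream start of Cald1 and of the downstream start of Mrtfa.

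Of the 8 tested members, 4 fell (Cnn1, Cnn2, Cnn3 and Mrtfa), 1 rose (Mylk) and 3 did not pass (Tagln, Tagln2 and Cald1). Calls were made at an adjusted p below 0.05 in edgeR's quasi-likelihood test over 15454 genes. In that comparison 21.3% of all genes tested were called lower, 17.6% higher and 38.9% in either direction, and the 5 calls among 8 members are to be read against these shares. The median log2 difference of the tested members was -0.28, against 0.01 over all genes tested. The groups of 3 values did not overlap for 6 of the 8, the called members and Tagln2, while 51.4% of all genes tested showed no overlap.

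**Figure D1:**
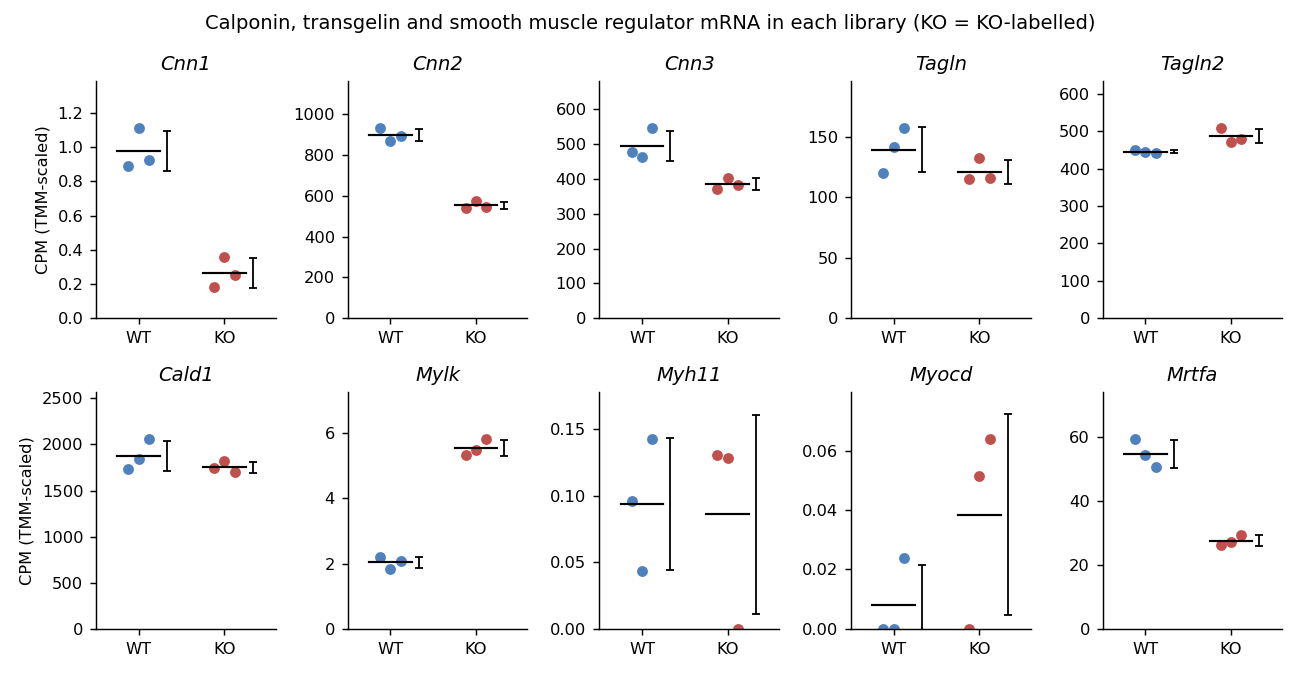
Level of each of the 10 members in CPM (TMM-scaled, linear axes from 0, a separate scale per gene) in the 3 WT and the 3 KO-labelled libraries; points are libraries, horizontal lines are means and vertical bars are 1 SD to each side. Cnn1, Cnn2, Cnn3 and Mrtfa lie lower and Mylk higher in all KO-labelled libraries, and Myh11 and Myocd lie at a few counts per library or none.

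All 3 calponin genes fell. Cnn2, the calponin of many non-muscle cells (chromosome 10, 79988584 to 79996062), measured 538, 574 and 546 CPM in KO-labelled libraries against 929.7, 869.8 and 893 CPM in WT. Every KO-labelled value lay below every WT value, and the coefficient of variation was 3.36% and 3.37% in the respective groups. The mean went from 897 ± 30.2 to 553 ± 18.6 CPM (SD, n = 3 libraries each), which leaves 61.6% of the WT level. On the log2 scale this was -0.70 (SE 0.07, 95% interval -0.86 to -0.53), at an edgeR adjusted p of 6.99e-05. This is the gene with the CArG box shown above, and whether that box has a part in the difference was not tested.

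Cnn3, the acidic calponin found in non-muscle cells and brain (chromosome 3, 121426497 to 121458207), gave 369.6, 402 and 383 CPM in KO-labelled against 477, 464 and 544 CPM in WT libraries. The groups did not overlap, although the gap between the highest KO-labelled and the lowest WT library was smaller than the spread of the WT libraries. With 77.8% of the WT level, Cnn3 differed by -0.36 on the log2 scale (SE 0.08, 95% interval -0.55 to -0.18; edgeR adjusted p 0.00684).

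Cnn1, the basic calponin and a marker of differentiated smooth muscle (chromosome 9, 22099216 to 22109630), was almost silent in both groups. It had 7, 14 and 8 counts in the KO-labelled libraries and 37, 51 and 39 counts in the WT libraries, or 0.183, 0.359 and 0.255 CPM against 0.891, 1.11 and 0.927 CPM. All WT libraries lay above all KO-labelled ones. The fitted log2 difference was -1.86 (SE 0.33, 95% interval -2.60 to -1.13; edgeR adjusted p 0.00164). Summed over libraries, 29 against 127 counts gave a ratio of 0.272, with a 95% exact interval of 0.175 to 0.410 that covers counting error only. Cnn1 passed the filter on low counts in all 3 WT libraries and in 2 of the KO-labelled ones, so its test depends on the group where it is higher.

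Levels of different genes are compared as CPM per kilobase of annotated exon. On that scale Cnn2 held 69.1 ± 1.95% of the calponin level in WT and 63.9 ± 0.280% in KO-labelled libraries, Cnn3 30.8 ± 1.95% and 36.0 ± 0.274%, and Cnn1 0.0678 ± 0.0106% and 0.0274 ± 0.00817% (SD, n = 3). Calponin mRNA was therefore that of Cnn2 and Cnn3 in all 6 libraries. The log2 ratio of Cnn2 to Cnn3 counts within a library, which needs no scaling factor, was 0.54, 0.51 and 0.51 in KO-labelled and 0.96, 0.91 and 0.71 in WT libraries. It differed by -0.34, with no overlap between groups, and the exact two-sided permutation test gave p = 0.1, the smallest that 3 against 3 allows. The log2 ratio of Cnn1 to Cnn2 fell by 1.23 and that of Cnn1 to Cnn3 fell by 1.56, again without overlap and with the same exact p of 0.1. Over the 5 gene pairs compared in this way, the values at 0.1 became 0.125 after Benjamini-Hochberg adjustment of the exact p.

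**Figure D2:**
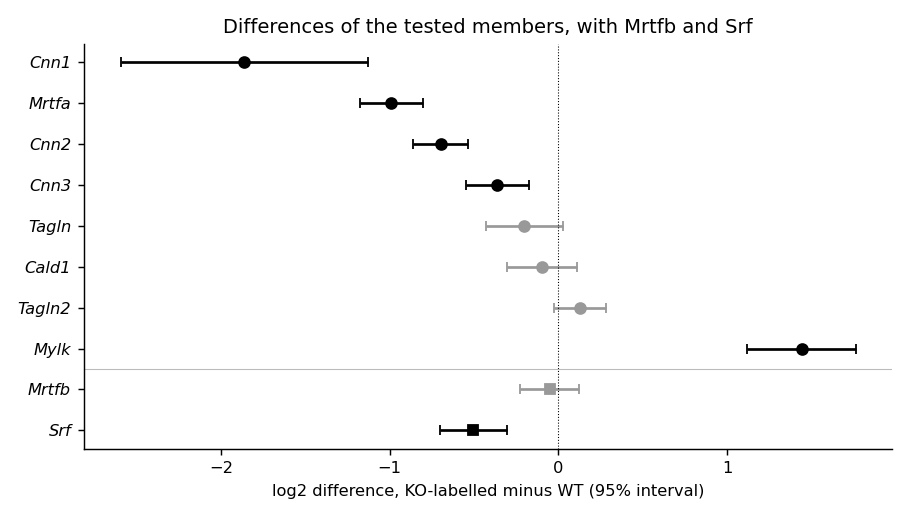
Log2 difference (KO-labelled minus WT) of the 8 tested members, and below the line of Mrtfb and Srf, which are not members; points are edgeR estimates, bars are 95% intervals, black marks an adjusted p below 0.05 and grey a gene that did not pass. Cnn1, Mrtfa, Cnn2 and Cnn3 lie below 0, Mylk lies at 1.44, and the intervals of Tagln, Cald1 and Tagln2 include 0.

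The transgelins did not pass. Tagln, an actin-bundling protein used as an early smooth muscle marker (chromosome 9, 45929619 to 45936058), had levels of 115, 133 and 116 CPM in KO-labelled and of 120.0, 142 and 157 CPM in WT libraries. The groups overlapped, since KO-labelled library 2 lay above WT library 1. The log2 difference was -0.20 (95% interval -0.43 to 0.03) with an adjusted p of 0.151 by edgeR, so the data allow anything from a fall by 0.43 to almost no difference. Without WT library 1 the difference was -0.30 and passed, with an adjusted p of 0.0281. With no filter on low counts it was -0.23 and passed, with an adjusted p of 0.0334.

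Tagln2, the transgelin of non-muscle cells and blood cells (chromosome 1, 172500047 to 172507380), gave 507, 472 and 478 CPM in KO-labelled against 449, 444 and 441 CPM in WT libraries. No WT library reached the lowest KO-labelled library. The log2 difference of 0.13 (95% interval -0.03 to 0.28) nevertheless did not pass, with an adjusted p of 0.168 by edgeR. Per length, Tagln2 held 75.3 ± 2.67% of the transgelin level in WT and 79.2 ± 1.84% in KO-labelled libraries, with Tagln the rest. The log2 ratio of Tagln to Tagln2 ran from -2.14 to -1.83 in KO-labelled and from -1.90 to -1.49 in WT libraries, and these ranges overlapped (exact two-sided permutation p = 0.2).

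Cald1, the gene of caldesmon (chromosome 6, 34598500 to 34775473), had the most counts of all members. It had levels of 1744, 1816 and 1701 CPM in KO-labelled and of 1732, 1838 and 2057 CPM in WT libraries, with overlapping groups. The log2 difference was -0.10 (95% interval -0.31 to 0.11, adjusted p 0.444 by edgeR). Caldesmon is made as a long smooth muscle form and shorter forms of other cells, and 18 transcripts are annotated for the gene. A count per gene does not tell them apart.

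Mylk, myosin light chain kinase (chromosome 16, 34745210 to 35002420), was the member that rose. KO-labelled libraries held 5.32, 5.47 and 5.81 CPM and WT libraries 2.19, 1.85 and 2.07 CPM, from 182 to 213 against 85 to 91 counts. The groups lay far apart relative to their spread, with SDs of 0.250 and 0.174 CPM. Mylk was 2.72-fold higher, or 1.44 on the log2 scale (SE 0.14, 95% interval 1.12 to 1.76; edgeR adjusted p 4.68e-05), and 6.62% of all genes tested differed by more in either direction. The locus is also the source of a short smooth muscle protein, telokin, and its 8 annotated transcripts are counted together.

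Myh11, the smooth muscle myosin heavy chain (chromosome 16, 14194535 to 14291372), was not tested because it did not reach the filter in any library. It had 5, 5 and 0 counts in the KO-labelled and 4, 2 and 6 counts in the WT libraries. The summed counts of 10 and 12 gave a ratio of 0.994 with a 95% exact counting interval of 0.385 to 2.51, so a difference of up to about that size was not detectable at this depth. The nonmuscle heavy chain gene Myh9, by contrast, stood at 2073 ± 367 CPM in KO-labelled and 2743 ± 127 CPM in WT libraries (log2 difference -0.40, adjusted p 0.0351 by edgeR).

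Among the SRF coactivators, Mrtfa fell and Myocd was near 0 in both groups. Myocd, the gene of myocardin (chromosome 11, 65176561 to 65269989), had 0, 2 and 2 counts in the KO-labelled and 0, 0 and 1 counts in the WT libraries. With 4 against 1 counts the ratio was 4.77 with a 95% exact counting interval of 0.472 to 235, which shows no direction. Mrtfa, which carries the signal from actin to SRF (chromosome 15, 81012281 to 81190757), gave 26.2, 27.2 and 29.5 CPM in KO-labelled against 59.4, 54.3 and 50.8 CPM in WT libraries. Every KO-labelled library lay well below every WT library. Mrtfa was left at 50.3% of the WT level, or -0.99 on the log2 scale (SE 0.08, 95% interval -1.18 to -0.80; edgeR adjusted p 1.6e-05), and 11.5% of all genes tested differed by more in either direction.

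Its paralog Mrtfb, which is no member, stood at 51.7 ± 3.12 CPM in KO-labelled and 53.5 ± 3.12 CPM in WT libraries, a log2 difference of -0.05 (95% interval -0.23 to 0.12, adjusted p 0.635 by edgeR). The log2 ratio of Mrtfa to Mrtfb within a library was -0.90, -0.91 and -0.90 in KO-labelled and 0.10, -0.03 and 0.02 in WT libraries. The 2 genes were thus counted about equally in WT libraries, whereas Mrtfa had fewer counts in every KO-labelled library, a shift of 0.94 (exact two-sided permutation p = 0.1, the smallest possible). Per length, Mrtfa held 60.1 ± 1.09% of the level of the 3 coactivators in WT and 44.0 ± 0.118% in KO-labelled libraries, and Myocd at most 0.0907% in any library. With the longest transcript as length these Mrtfa shares were 65.9% and 50.2%.

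**Figure D3:**
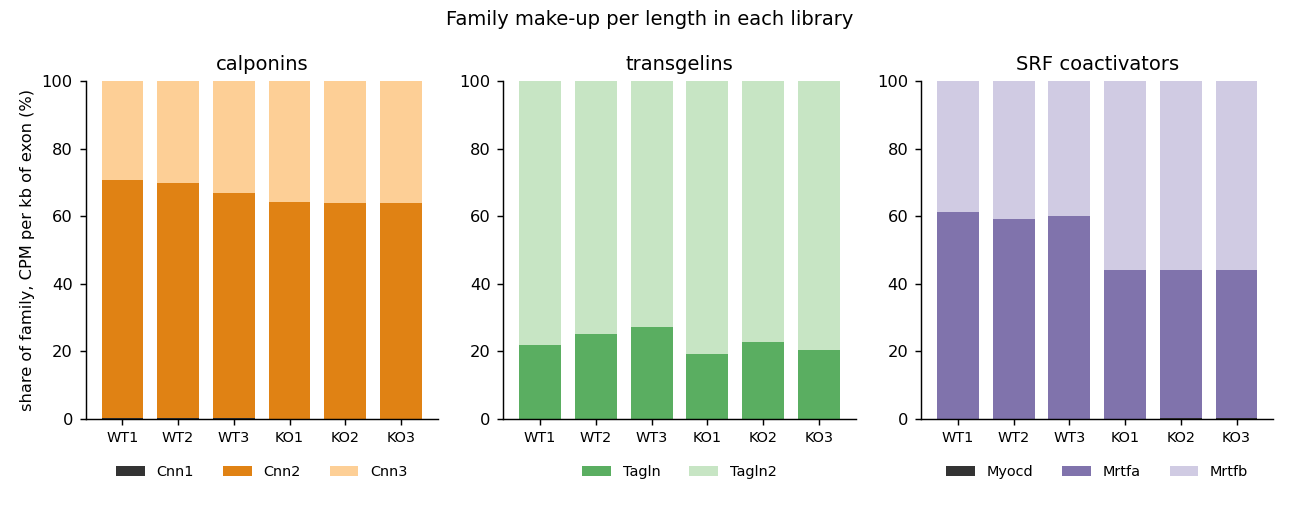
Share of each paralog in the summed level of its family, in CPM per kilobase of annotated exon (percent, bars stacked to 100), for the 3 WT and the 3 KO-labelled libraries. Mrtfa lies between 59.1% and 61.2% in WT and between 43.8% and 44.1% in KO-labelled libraries, the Cnn2 share is lower in the KO-labelled libraries, and Cnn1 and Myocd are too low to be seen.

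In the order of levels per kilobase of exon, with all annotated exons of a gene as its length, Cnn2 led in the WT libraries at 365 ± 12.3 CPM per kilobase, ahead of Tagln2 at 214 ± 1.95. Cnn3 at 163 ± 14.3 and Cald1 at 156 ± 13.8 came next and overlapped. Tagln followed at 70.2 ± 9.39, Mrtfa at 8.97 ± 0.709, Cnn1 at 0.357 ± 0.0428 and Mylk at 0.181 ± 0.0154, with Myh11 and Myocd below 0.02 in both groups. In the KO-labelled libraries Tagln2 at 233 ± 9.02 and Cnn2 at 225 ± 7.55 overlapped at the top. Cald1 at 146 ± 4.82 then lay above Cnn3 at 127 ± 5.32, and Mylk at 0.491 ± 0.0222 above Cnn1 at 0.0971 ± 0.0324, the reverse of their order in WT. Among 15446 tested genes with a length, Cnn2 ranked 106 in WT and 183 in KO-labelled libraries, and Mrtfa 4942 and 7283. The place of Cald1 depends on the length used: its union of exons is 12041 bases and its longest transcript 4777, and with the latter its WT level was 393 ± 34.7 CPM per kilobase, close to that of Cnn2. In the KO-labelled libraries the longest transcript put Cald1 first at 367 ± 12.2, Tagln2 next at 306 ± 11.8 and Cnn2 after them at 225 ± 7.55, so the order at the top rests on the choice of length.

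Genes around the members were read from 4 lists of 58 genes without the members, on SRF, contraction, light chain phosphorylation and nonmuscle myosin. Of the 12 genes for SRF and its cofactors and modulators, all tested, 6 fell, 1 rose and 5 did not pass, with a median log2 difference of -0.22. Srf itself fell from 69.3 ± 2.64 to 48.8 ± 5.29 CPM, or by 0.51 on the log2 scale (SE 0.09, edgeR adjusted p 0.00161). Fhl1, a LIM-domain protein of muscle, fell from 237 ± 26.5 to 81.4 ± 0.414 CPM and Gata6, a transcription factor of vascular smooth muscle, from 7.004 ± 0.873 to 3.18 ± 0.347 CPM. The ternary complex factors, which compete with the myocardin family for SRF, did not move together: Elk3 fell by 0.43 on the log2 scale, Elk4 rose by 0.49, and Elk1 did not pass at -0.18.

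Of 24 genes of the smooth muscle contractile apparatus, 22 were tested; 15 fell, 3 rose and 4 did not pass, with a median of -0.52, also with Itga8 at its bound. Myl9, the smooth muscle regulatory light chain that Mylk phosphorylates, fell by 1.55 and Tpm2, a tropomyosin, fell by 1.51 on the log2 scale. Lmod1, a leiomodin that nucleates actin filaments in smooth muscle, fell from 27.3 ± 1.95 to 10.2 ± 1.11 CPM. Itga8, an integrin subunit, had 308, 351 and 380 counts in the WT libraries and 0 in the KO-labelled ones, at least 290-fold lower against a floor of 3 counts over the group. Itga8 is counted among the 15 that fell, but it passed the filter on low counts through the WT libraries alone. Its test therefore depends on the group where it is higher. Actg2, the enteric smooth muscle actin, went the other way with a log2 difference of 1.69 (SE 0.08).

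Of 19 genes that control phosphorylation of the light chain, 15 were tested; 5 fell, 2 rose and 8 did not pass, with a median of -0.10. Rhob, a small GTPase, fell by 0.72, Ppp1r14b, an inhibitor of protein phosphatase, by 0.50, Calm3, a calmodulin gene, by 0.43 and Rhoc by 0.30 on the log2 scale. Ppp1cb, the catalytic subunit of myosin phosphatase, rose by 0.40. The kinase genes Rock1 and Rock2, named after their values were seen, did not pass at 0.20 and 0.06. Of the 3 nonmuscle myosin heavy chains, Myh9 was lower as given above, Myh10 did not pass at -0.14, and Myh14 was not tested. Over the 4 lists together, 27 of 51 tested genes fell and 6 rose, with a median of -0.28, beside the 21.3% lower and 17.6% higher among all genes tested. The lists were chosen with earlier results of these data known, and whether they differ from other genes was not tested.

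**Figure D4:**
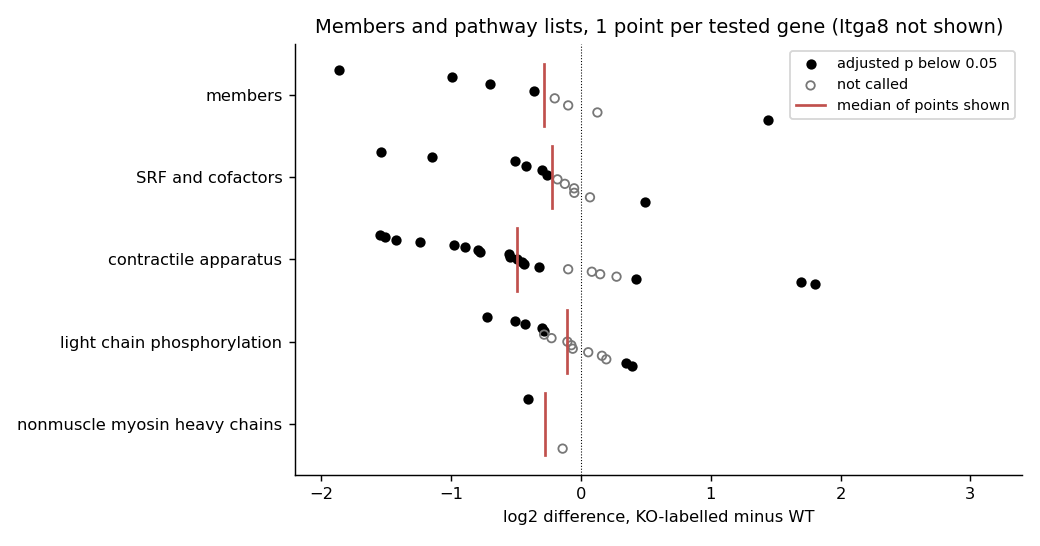
Log2 difference (KO-labelled minus WT) of each tested member and of each tested gene in the 4 lists around them; filled points have an adjusted p below 0.05, open points did not pass, and red lines mark the median of the points shown. Itga8, which had no count in the KO-labelled libraries, is left out of the plot; the contractile list holds most of the larger falls, with Actg2 and Des on the far right.

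Some members share sequence with other genes, and whether the counting used strand is not given in the sources used here. Of the 50-base stretches in annotated Tagln transcripts, 58.4% also occur in another gene's transcripts on either strand, 55.4% in the antisense gene Gm48529, whose own count was 2.24% to 4.99% of that of Tagln. The protein-coding gene Pcsk7 overlaps Tagln by 108 bases on the other strand, and its count was 18.2% to 28.1% of that of Tagln. For Cnn3 the shared part was 24.0%, and its 2 overlapping gene models held at most 0.444% of its count. For Mylk it was 4.56%, and the antisense gene E130310I04Rik held 6.31 to 17.8 counts per library, or 5.18% to 16.5% of the count of Mylk. The values of Tagln, Cnn3 and Mylk are uncertain to that extent, while Cnn1, Cnn2, Cald1 and Mrtfa shared none of these stretches.

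The genes around the members were called as follows, beside 21.3% lower and 17.6% higher among all genes tested. Within 1 Mb of Cnn2, 33 of 78 tested genes fell and 5 rose (median log2 difference -0.21), and within 1 Mb of Cnn1 15 of 42 fell and 2 rose (median -0.19). Around Tagln 11 of 16 fell and 0 rose, with a median of -0.40, and around Cald1 9 of 19 rose and 4 fell, with a median of 0.40. Around Cnn3 5 of 19 fell and 3 rose (median 0.05), and around Tagln2 3 of 17 fell and 6 rose (median 0.10). Around Mrtfa 5 of 32 fell and 3 rose (median -0.03), and around Mylk, the member that rose, 7 of 17 fell and 2 rose (median -0.21). Medians were also taken over all tested genes of each chromosome. They were -0.17 for chromosome 9 (Cnn1 and Tagln), 0.29 for chromosome 1 (Tagln2) and 0.17 for chromosome 6 (Cald1). On chromosomes 10 (Cnn2), 3 (Cnn3), 15 (Mrtfa) and 16 (Mylk) they were -0.08, 0.01, 0.01 and -0.01. Tagln at -0.20 lay near the median of its chromosome, and Tagln2 at 0.13 below that of its own. Cnn3, Cald1 and Mylk differed in sign from the median of their neighbours. Whether the members moved with their neighbours or their chromosome was not tested.

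The genes with the closest profile over the 6 libraries were found by the Euclidean distance of log2 CPM, each gene centred on its own mean, so that both the group difference and the spread between libraries count. The smallest distance of all was that of Tagln2 to Lsm10 at 0.0389, and Hnrnpab lay at 0.0394 from Cald1. Neither Tagln2 nor Cald1 had passed. For Mrtfa the closest was Slc2a1, a glucose transporter gene, at a distance of 0.0449, followed by Ptp4a3 at 0.0907 and Rusc2 at 0.0932. For Cnn2 the closest were Cyp2j9 at 0.0835 and Rfx5 at 0.0876, and for Cnn3 Capzb, an actin-capping protein subunit, at 0.0832 and Nolc1 at 0.0877. For Mylk the closest were Tlr2 at 0.174 and Lmo7 at 0.180. No member was among the 3 closest genes of another member.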

How the data were processed

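Deposited values were expected counts per gene, estimated by RSEM after cutadapt on GRCm38, per the submitters' processing notes; for the versions, the aligner and any use of strand, the answer is not given in the sources used here. Symbols, positions and exon lengths came from GENCODE M21, which matched 55230 of the 55471 identifiers. Of all values, 17.9% were not whole, and expected counts were rounded. Genes were filtered with filterByExpr (minimum count 10, total 15; 15454 genes kept), scaled by TMM and tested two-sided for genotype, the single term, with the quasi-likelihood method of edgeR 4.0.16 (R 4.3.3) and Benjamini-Hochberg adjustment over all genes tested. SE and intervals came from the F statistic. Ratios and shares within a library used exact permutation tests. Alternatives were other scaling and filters, DESeq2 1.42.0, a replicate block and leaving out each library.

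The members and lists were chosen with earlier results of these data known. All members and Ranbp2 are named, and of each list at most 5 genes with the smallest adjusted p; exceptions are marked in the text, apart from Elk1, Des, Myh10, Myh14 and the markers, which were named after their values were seen. For each tested member the 3 closest genes were found. Only some of them are named, for Mrtfa, Cnn2, Cnn3, Mylk, Tagln2 and Cald1.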

Additional observations from a re-analysis of the deposited data

How the results depend on the processing

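Every alternative kept the direction of the 8 tested members, and 275 of 277 recomputed values were labelled unchanged. For a gene this meant the same side of the threshold, and for a ratio or share a value within the spread between replicates. Numbers of called genes had only to stay within a fixed factor of the main number. Over all genes they ran from 1839 to 2796 higher and from 2514 to 3916 lower. The exceptions were both Tagln, which passed with no count filter (-0.23) and without WT library 1 (-0.30), in a range of -0.30 to -0.11 over libraries left out; the cause was not tested. Leaving out each library gave -2.16 to -1.64 for Cnn1, -0.73 to -0.68 for Cnn2, -0.41 to -0.29 for Cnn3, -1.04 to -0.93 for Mrtfa and 1.37 to 1.49 for Mylk, all called. Cnn1 was not tested where 1 CPM in 3 libraries was required. Replicate numbers did not pair the libraries (same-number correlations of 0.02, -0.08 and -0.03); with the replicate block 4 members fell and 1 rose, as without it, and the calls over all genes went from 2721 to 2213 higher and from 3290 to 2781 lower. Low counts limit Cnn1, Myh11 and Myocd.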
